A study of Mus musculus with 10 samples.

Results

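The BCL2 family sets the threshold at which a cell commits to mitochondrial apoptosis, and 10 of its genes are described here in granulocyte-macrophage progenitors (GMPs), the bone marrow progenitors of neutrophils and monocytes. The members were taken by name from the 51717 genes to which the quantified transcripts were summed. They are 5 anti-apoptotic genes (Mcl1, Bcl2, Bcl2l1, Bcl2a1b and Bcl2a1d), 2 effectors (Bax and Bak1) and 3 BH3-only genes (Bcl2l11, Bad and Bid). GMPs of donor origin (CD45.2+) were sorted from the marrow of irradiated male C57Bl6/N chimeras after 2 wk on tamoxifen chow. In the paper's mixed chimeras, donor marrow was combined with WT CD45.1 marrow and given to irradiated B6.Ly5.2 (CD45.1) recipients. The WT group carried ROSA26 CreER+/- alone, and the recent KO group carried Mpc2fl/fl; ROSA26 CreER+/-, so that both groups held the inducible Cre recombinase and both received tamoxifen. Each group had 5 samples. WT samples were single mice (1 each), whereas each recent KO sample pooled the GMPs of 2 mice, which makes 10 recent KO mice. CreER is expressed constitutively from the ROSA26 locus, so among cells of donor origin deletion was not limited to GMPs. Only donor cells carried CreER and, in the recent KO group, the floxed Mpc2. Mpc2 encodes a subunit of the mitochondrial pyruvate carrier.

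In this pathway the effectors BAX and BAK open pores in the outer mitochondrial membrane and release cytochrome c, which activates caspases through the apoptosome. The anti-apoptotic proteins hold effectors and BH3-only proteins in a surface groove, and BH3-only proteins occupy that groove or activate the effectors when a cell is stressed or deprived of growth factors. MCL1 is known to be required for the survival of myeloid progenitors and neutrophils, and A1, the product of the Bcl2a1 genes, is abundant in mature granulocytes. Much of the control of these proteins is by stability, phosphorylation and cleavage, which mRNA levels do not show.

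Members of the family share short motifs, of which the BH3 motif is the one by which members bind each other. Its core (a leucine, any 3 residues, a glycine or serine, then an aspartate) was located by translating the most abundant protein-coding transcript of each member. The coding stretch of 39 bases around it is shown for the 8 members in which it was found, to set the pro-apoptotic members beside the survival genes that share the motif. Stretches are in the sense of the coding strand, 5′ to 3′, from GENCODE M21 transcripts on GRCm38, and capitals mark the codons of the leucine and of the glycine or serine with its aspartate.
Mcl1: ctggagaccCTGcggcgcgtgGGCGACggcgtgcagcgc
Bcl2: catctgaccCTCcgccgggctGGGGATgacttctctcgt
Bcl2l1: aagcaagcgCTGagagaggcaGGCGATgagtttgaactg
Bax: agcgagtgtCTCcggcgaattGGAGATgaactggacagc
Bak1: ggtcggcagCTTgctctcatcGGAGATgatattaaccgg
Bcl2l11: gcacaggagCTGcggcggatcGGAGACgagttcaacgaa
Bad: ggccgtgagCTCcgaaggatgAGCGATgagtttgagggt
Bid: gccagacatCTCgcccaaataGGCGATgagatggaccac

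Each of these 8 proteins held 1 match, and Bad was the one with serine in place of glycine. The match began at residue 194 of 331 in the Mcl1 protein, 94 of 236 in Bcl2, 90 of 233 in Bcl2l1, 63 of 192 in Bax, 76 of 209 in Bak1, 150 of 196 in Bcl2l11, 109 of 162 in Bad and 90 of 195 in Bid. The pattern is short and is not particular to the family, since 25.6% of 22042 coding genes held it. It was not found in the 172 residues of Bcl2a1b or Bcl2a1d, which says only that these letters are not in those proteins.

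Bcl2a1b and Bcl2a1d are copies of one gene on chromosome 9, with Bcl2a1a and the shorter Bcl2a1c as further copies. The first 90 bases of coding sequence are shown for the 3 copies of equal length because they bear on how far reads can be assigned to one copy. Capitals mark the 6 positions in this stretch at which the copies are not all alike, of 12 such positions in the 516 coding bases.
Bcl2a1a: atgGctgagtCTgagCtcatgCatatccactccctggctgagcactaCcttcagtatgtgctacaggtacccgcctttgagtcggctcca
Bcl2a1b: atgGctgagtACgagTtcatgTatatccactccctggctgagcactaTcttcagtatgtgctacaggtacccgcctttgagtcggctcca
Bcl2a1d: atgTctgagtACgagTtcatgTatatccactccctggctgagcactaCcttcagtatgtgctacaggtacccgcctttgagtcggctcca

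Over the whole coding sequence Bcl2a1b and Bcl2a1d were 98.8% identical, with 6 differing bases. Reads between those positions fit both copies, and Salmon, the program that quantified the transcripts, divides such reads by estimate. The values of each copy are therefore uncertain, and their sum is given beside them.

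The genes lie apart in the genome, apart from the Bcl2a1 copies. On GRCm38, Mcl1 is at chr3:95658788-95663176, Bcl2 at chr1:106538178-106714274, Bcl2l1 at chr2:152780668-152831728 and Bcl2l11 on the same chromosome at chr2:128126038-128162547. Bax is at chr7:45461697-45466898, Bak1 at chr17:27019810-27029009, Bad at chr19:6941861-6951899 and Bid at chr6:120891930-120916853. Bcl2a1b is at chr9:89199209-89207827 and Bcl2a1d at chr9:88723285-88731914. The library kit does not mark strand, so reads where a member overlaps a gene on the other strand cannot be told apart by strand. Such overlaps with protein-coding genes were 9200 bases for Bak1 with Ggnbp1, 913 bases for Bid with Bcl2l13 and 620 bases for Bad with Gpr137. With antisense genes and pseudogenes they were 33103 bases for Bcl2 with D630008O14Rik, 8630 bases for Bcl2a1d with Gm10634 and 318 bases for Bid with Gm17812.

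Across the series, samples totaled 14033776 to 19745405 estimated reads, with 14133706 to 19745405 in WT and 14033776 to 19658346 in recent KO. Mpc2 was lower in each recent KO sample (17.1 to 43.9 CPM, read counts normalized to a common library total) than in any WT sample (60.9 to 117 CPM), with a log2 fold change of -1.46 and an adjusted p of 0.0156 by edgeR, and an exact two-sided permutation p of 0.00794, the smallest that 5 against 5 samples allow. Of 10 GMP identity genes all were tested, 7 had lower estimates and 0 passed the adjusted test. These 7 had an unadjusted p under 0.05 by edgeR, beside 10.2% of all genes, and the median log2 fold change of the list was -0.34. The summed TPM of the list (abundance scaled to transcript length and to a common total) was 65033 to 85065 in WT and 38525 to 70145 in recent KO. Markers of other cells also moved. The 8 mature neutrophil genes summed to 20.5 to 80.8 TPM in WT and 27.5 to 298 TPM in recent KO, highest in replicate 2. Of 7 of them tested, 6 had higher estimates (median 1.53), 5 had an unadjusted p under 0.05 by edgeR and 0 passed. The 6 erythroid genes summed to 13.1 to 56.0 TPM in WT and 31.6 to 305 TPM in recent KO, highest in replicate 3. Of 5 of them tested, 5 had higher estimates (median 1.95), 3 had an unadjusted p under 0.05 by edgeR and 0 passed. C1qa, C1qb and C1qc, made by tissue macrophages, were the 3 of 8 monocyte and macrophage genes that passed, with higher estimates (adjusted p 0.0160 to 0.0406 by edgeR). Of the 8, 4 had lower estimates, and of 6 with an unadjusted p under 0.05 by edgeR only 3 were higher. The median log2 fold change was -0.01, and the list summed to 221 to 312 TPM in WT and 211 to 312 TPM in recent KO. Of 6 T cell genes 0 were tested, 4 stayed under 1 TPM in every sample, and the list summed to at most 2.98 TPM, while the B cell list summed to 41.7 to 56.6 TPM, nearly all from Cd79b.

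In WT GMPs the transcripts of Bax, Bad and Bid were far more abundant, per length, than those of the survival genes. TPM was used for comparisons of levels between genes unless CPM is named. Bax stood first at 293 ± 30.2 TPM (SD, n = 5), followed by Bad at 82.9 ± 4.76 TPM and Bid at 67.9 ± 5.71 TPM. The most abundant survival gene was Mcl1 at 15.99 ± 1.58 TPM, which was a 4.25-fold lower mean than that of Bid. Bax, Bad and Bid together took 93.2% ± 0.583 (SD, n = 5) of the summed TPM of the 10 members.

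By TPM, the order of the members was firm at the top and loose at the bottom. Bax exceeded Bad, Bad exceeded Bid, Bid exceeded Mcl1, Mcl1 exceeded Bcl2 and Bcl2 exceeded Bcl2l1 in 5 of 5 WT samples each, and again in 5 of 5 recent KO samples. Below these, Bcl2l1 (3.09 ± 0.587 TPM) exceeded Bcl2a1b (2.99 ± 1.08 TPM) in 2 of 5 WT samples, and Bcl2l11 (1.46 ± 0.320 TPM) exceeded Bak1 (1.40 ± 0.317 TPM) in 3 of 5, so that neither pair differed beyond its spread. Bcl2a1b exceeded Bcl2a1d in 4 of 5 WT samples. The places of Bad and Bid depended on the scale. Their WT ranges in TPM overlapped, and the WT mean CPM, which is not scaled to length, was higher for Bid (168) than for Bad (72.8). The bottom of the order also depended on it, since WT mean CPM placed Bcl2l11 (4.81) and Bak1 (3.31) above Bcl2a1b (2.00) and Bcl2a1d (1.70). By mean WT TPM the 2 effectors stood at opposite ends of the order. On that scale Bax was above 95.6% of the 12381 genes tested and Bak1 above 24.8% of them. Bcl2l11, which encodes BIM, was above 25.4%, Mcl1 above 69.0% and Bcl2 above 48.2%. The place of Bak1 is less certain, since it shares 263 bases at 99.6% identity with the overlapping gene Ggnbp1. Ggnbp1 held up to 141 estimated reads in a sample, and how reads were divided there was not tested.

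**Figure D1:**
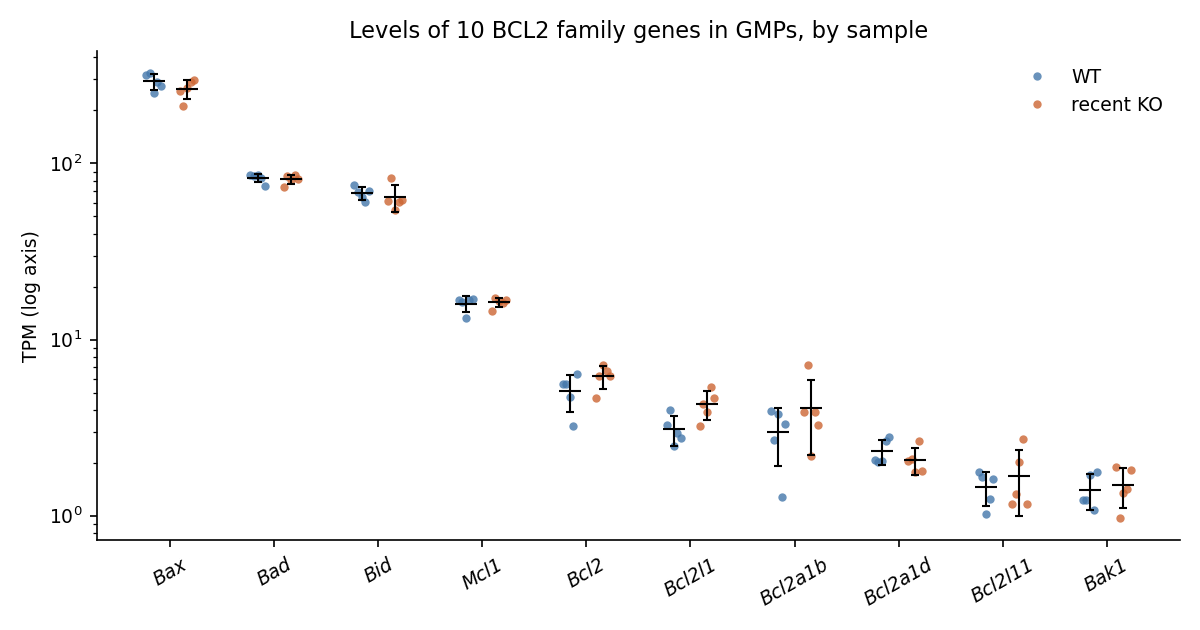
TPM of the 10 BCL2 family genes on a log axis, ordered by WT mean, with 1 point per sample (blue, WT; orange, recent KO; 5 each) and black bars for the mean and SD. Bax, Bad and Bid form the top of the order in both groups, Mcl1 stands at about 16 TPM, and the points of WT and recent KO overlap for every gene.

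Between recent KO and WT no member passed the test. All 10 members were among the 12381 genes tested, and 0 of them had an adjusted p under 0.05 by edgeR, where the share over all genes was 0.331% (41 genes). At an unadjusted p under 0.05 there was 1 member, Bcl2l1, beside a share of 10.2% over all genes. The samples of the groups overlapped for all 10 members, whereas 2.43% of all genes had groups that did not overlap. Of the members 6 had higher and 4 had lower estimates in recent KO, with a median log2 fold change of 0.03 beside -0.002 over all genes. By role, 4 of 5 anti-apoptotic members had higher estimates (median 0.20) and 3 of 5 pro-apoptotic members had lower ones (median -0.08).

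**Figure D2:**
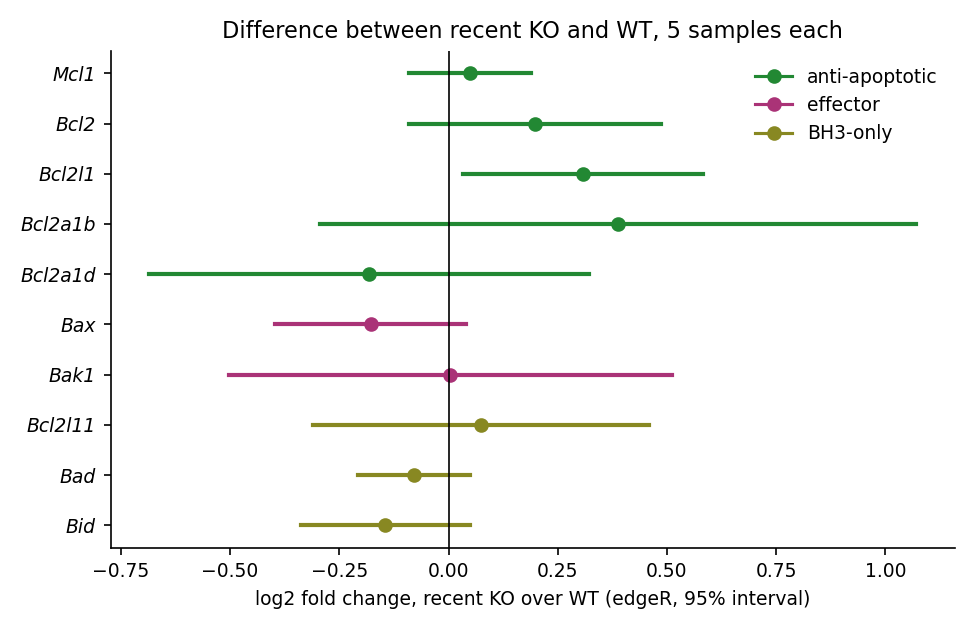
Log2 fold change of each BCL2 family gene in recent KO over WT (point) with its 95% interval (line) from edgeR, 5 samples per group, colored by role. The interval of Bcl2l1 is the only one that does not include 0, and its adjusted p is 0.425; the widest intervals are those of Bcl2a1b, Bcl2a1d and Bak1.

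Mcl1, the short-lived survival protein on which granulocyte progenitors depend, was the steadiest of the anti-apoptotic genes. Its 5 WT samples held 52.7, 60.1, 57.8, 63.7 and 57.0 CPM and its 5 recent KO samples held 57.4, 60.2, 63.7, 62.1 and 57.9 CPM. The range of recent KO lay within that of WT. The log2 fold change was 0.05 (95% interval -0.09 to 0.19, adjusted p = 0.861 by edgeR), so that a fold change outside 0.939 to 1.14 lay beyond the interval.

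Bcl2, the founding survival gene of the family, was measured at 41.7, 40.2, 38.7, 25.4 and 43.5 CPM in WT and at 35.0, 41.8, 51.1, 46.7 and 42.9 CPM in recent KO. WT replicate 4 was apart from the other WT samples, and recent KO replicate 3 was the highest of all 10. The log2 fold change was 0.20 (95% interval -0.09 to 0.49, adjusted p = 0.671 by edgeR), and without WT replicate 4 it was 0.09, with an adjusted p of 0.894.

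Bcl2l1, which encodes BCL-XL and is best known for keeping erythroid cells and platelets alive, had the smallest p of the 10 members. Its WT samples held 8.52, 8.60, 7.30, 8.32 and 7.12 CPM and its recent KO samples held 8.09, 9.37, 10.4, 12.5 and 8.97 CPM. In 4 of 5 recent KO samples it was above all WT samples, and replicate 1 fell within the WT range. The log2 fold change was 0.31 (95% interval 0.03 to 0.58), with an unadjusted p of 0.0305 and an adjusted p of 0.425 by edgeR, which did not pass. With each sample left out in turn, the estimate was 0.21 (without recent KO replicate 4) to 0.37 (without recent KO replicate 1). The unadjusted p by edgeR was 0.103 without recent KO replicate 4 and 0.0605 without recent KO replicate 3. Without WT replicate 3 it was 0.0681, and without WT replicate 5 it was 0.0694. With any other sample left out it was 0.0120 to 0.0370. The largest Bcl2l1 values were in recent KO replicates 4 and 3, with erythroid sums of 211 and 305 TPM. Recent KO replicate 5, with an erythroid sum of 184 TPM, held 8.97 CPM, below replicate 2 at 9.37 CPM with a sum of 43.9 TPM. The part of erythroid RNA in this estimate was not tested. In bulk RNA, fewer cells of a type and less RNA per cell cannot be told apart.

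The A1 genes were measured from few reads. Bcl2a1b held 2.35, 1.83, 2.73, 0.933 and 2.16 CPM in WT samples and 2.88, 4.34, 1.42, 2.56 and 2.16 CPM in recent KO, and Bcl2a1d held 1.32, 1.5, 1.60, 2.10 and 1.98 CPM in WT samples and 1.62, 1.40, 1.27, 1.89 and 1.29 CPM in recent KO. The highest Bcl2a1b value was in recent KO replicate 2, the sample with the highest mature neutrophil sum, and the part of neutrophil RNA in it was not tested. The log2 fold changes were 0.39 (95% interval -0.29 to 1.07, adjusted p = 0.752) for Bcl2a1b and -0.18 (95% interval -0.69 to 0.32, adjusted p = 0.855) for Bcl2a1d by edgeR. Without recent KO replicate 2 the estimate of Bcl2a1b was 0.15, and without WT replicate 4 it was 0.22. That of Bcl2a1d was -0.10 without WT replicate 4 and -0.12 without WT replicate 5. It was -0.28 when recent KO replicate 4 was left out.

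The division of reads between the A1 copies also varied by sample. The 4 copies together held 43.0 to 83.9 estimated reads per WT sample and 64.0 to 95 per recent KO sample, of which Bcl2a1b took 27.6% to 57.1% in WT and 45.3% to 65.3% in recent KO. In WT replicate 4, Bcl2a1b took its lowest share and Bcl2a1d its highest, 62.8%. Summed to 1 gene, the copies were at 4.14 ± 0.574 CPM in the WT group and 4.65 ± 1.36 CPM in the recent KO group (SD, n = 5 each). Their log2 fold change was 0.15 (95% interval -0.28 to 0.59, adjusted p = 0.860 by edgeR).

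Bax, the dominant effector, held 213, 253, 205, 238 and 202 CPM in WT samples and 209, 147, 195, 212 and 218 CPM in recent KO. Recent KO replicate 2 was lowest of the 10 samples, and the other recent KO samples lay between 195 and 218 CPM. The log2 fold change was -0.18 (95% interval -0.40 to 0.04, adjusted p = 0.591 by edgeR), and without recent KO replicate 2 it was -0.09.

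Bak1, which encodes the second effector, was measured at 2.55, 3.38, 4.22, 2.56 and 3.83 CPM in WT and at 4.64, 1.96, 2.98, 3.10 and 3.92 CPM in recent KO. The recent KO samples included both the highest and the lowest value. With 28.0 to 76.0 estimated reads per sample, the log2 fold change was 0.00 with a 95% interval of -0.50 to 0.51 (adjusted p = 0.998 by edgeR), which leaves room for a fold change of 0.706 to 1.42. Its sign changed when single samples were left out.

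Among the BH3-only genes, Bcl2l11 encodes BIM, which binds all the anti-apoptotic proteins and mediates death after cytokine withdrawal. It held 5.04, 5.66, 3.50, 4.82 and 5.03 CPM in WT samples and 3.73, 4.48, 5.86, 6.45 and 4.74 CPM in recent KO. The groups overlapped over most of their range, with the highest values in recent KO replicates 4 and 3. The erythroid sums of these samples were 211 and 305 TPM. Recent KO replicate 5, with an erythroid sum of 184 TPM, held 4.74 CPM. The part of erythroid RNA in the Bcl2l11 values was not tested. The log2 fold change was 0.07 (95% interval -0.31 to 0.46, adjusted p = 0.931 by edgeR).

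Bad encodes a BH3-only protein that survival kinases hold inactive by phosphorylation. It varied little between replicates, at 73.2, 70.6, 75.6, 75.9 and 68.7 CPM in WT samples and 74.9, 67.3, 65.4, 70.6 and 66.2 CPM in recent KO. In 4 of 5 recent KO samples it was under the WT median, and the log2 fold change was -0.08 (95% interval -0.21 to 0.05, adjusted p = 0.720 by edgeR).

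Bid encodes the BH3-only protein that caspase-8 cleaves to carry a death receptor signal to mitochondria. Its WT samples were closely spaced at 174, 170.0, 172, 158 and 166 CPM, and its recent KO samples were spread over 159.8, 189, 125, 141 and 145 CPM. In recent KO, replicate 2 was above every WT sample and 3 samples were below every WT sample. The log2 fold change was -0.14 (95% interval -0.34 to 0.05, adjusted p = 0.631 by edgeR), and without recent KO replicate 2 it was -0.24, with an adjusted p of 0.150, whereas without replicate 3 it was -0.08, with an adjusted p of 0.883.

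The intervals limit what these samples could have missed. For 8 of the 10 members the whole 95% interval of the main fit lay within a 1.5-fold change in either direction. Bcl2l1 was close to this bound, with an upper end of 1.498. Its log2 fold change was larger with an offset for transcript length (0.41) and with limma on log2(TPM + 0.1) (0.46), so the bound holds for the main fit only. The 2 members whose intervals in the main fit went beyond 1.5-fold were Bcl2a1b, with a fold change interval of 0.816 to 2.10, and Bcl2a1d, with 0.622 to 1.25.

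The balance of anti- and pro-apoptotic transcripts was described per sample as the log2 ratio of the summed TPM of the 5 anti-apoptotic to that of the 5 pro-apoptotic members. The ratio was -3.93, -3.99, -3.95, -4.02 and -3.72 in WT and -3.80, -3.37, -3.69, -3.67 and -3.76 in recent KO. The groups overlapped: WT replicate 5 was above recent KO replicates 1 and 5, and recent KO replicate 2 was the highest. The means were -3.92 ± 0.118 in WT and -3.66 ± 0.167 in recent KO (SD, n = 5 each), a difference of 0.27 on the log2 scale, and no test was made of a score over these members. On the linear scale the pro-apoptotic sum was 15.2 ± 1.19 times the anti-apoptotic sum in WT and 12.7 ± 1.38 times in recent KO.

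The group means of both sides of the ratio differed in that direction. The anti-apoptotic sum was 29.5 ± 2.76 TPM in WT and 32.9 ± 3.25 TPM in recent KO, the effector sum was 294 ± 29.9 and 266 ± 33.5 TPM, and the BH3-only sum was 152 ± 7.80 and 147 ± 13.3 TPM. Each of these 3 sums overlapped between the groups. Against the effectors alone the log2 ratio differed by 0.30, and against the BH3-only genes alone it differed by 0.21. Without recent KO replicate 2, which had the lowest Bax and the highest mature neutrophil sum, the difference of the full ratio was 0.19, and the part of neutrophil RNA in it was not tested.

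How large the imbalance looked depended on the scale. Counted as normalized reads, which favor long transcripts such as those of Bcl2 and Mcl1, the pro-apoptotic sum was 4.38 ± 0.289 times the anti-apoptotic sum in WT and 3.64 ± 0.463 times in recent KO. The difference of the log2 ratio was 0.27 on this scale as well. The single ratio of Mcl1 to Bcl2l11, a survival protein and its BH3-only partner, was 3.48 ± 0.240 in WT and 3.36 ± 0.538 in recent KO (log2 of TPM, SD, n = 5 each).

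**Figure D3:**
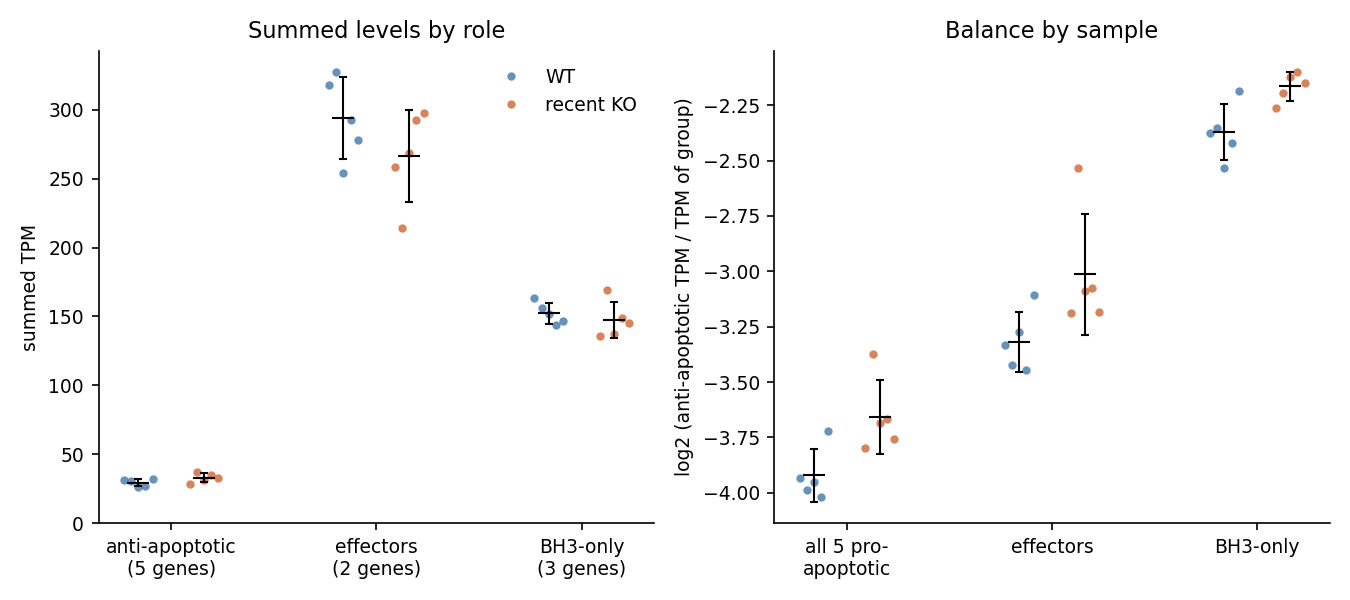
Left, summed TPM of the 5 anti-apoptotic, 2 effector and 3 BH3-only genes; right, log2 ratio of the anti-apoptotic sum to the sum of all 5 pro-apoptotic genes, of the effectors or of the BH3-only genes. Points are samples (blue, WT; orange, recent KO; 5 each) and black bars the mean and SD; recent KO means lie above WT means in the right panel by 0.27, 0.30 and 0.21, and the groups overlap in each.

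Transcript isoforms matter in this family because some encode other proteins. Of 26185 transcripts tested, 0.042% passed an adjusted p under 0.05 and 6.15% had an unadjusted p under 0.05. Of 21 tested transcripts of the members, 0 reached either mark, and the smallest adjusted p was 0.886 by edgeR. Mcl1 and Bid were nearly single transcripts, with Mcl1-201 (331 residues) at 98.0% and Bid-201 (195 residues) at 98.7% of the reads of the gene. Bcl2-201, which encodes 236 residues, took 87.2% of Bcl2 reads, and Bcl2-202, which encodes 199 residues, took 12.8%.

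For Bcl2l11, the longest form Bcl2l11-205 (196 residues) took 67.0% of reads and the form of 140 residues, Bcl2l11-203, took 10.2%. The form of 91 residues, Bcl2l11-202, in which the BH3 core shown above was not found, took 11.5%. Their shares differed widely between samples, and Bcl2l11-205 ranged from 28.1% to 78.0% in recent KO and from 59.8% to 77.8% in WT, from 53.0 to 120.0 estimated reads per sample. For Bax, Bax-201 (192 residues) took 82.5% of reads, and for Bad, Bad-202 (162 residues) took 77.6%.

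Reads of Bcl2l1 and Bak1 moved between transcripts from sample to sample. Bcl2l1-202, which encodes the same 233 residues as Bcl2l1-201, took 47.1% of Bcl2l1 reads in recent KO replicate 3, 15.6% and 9.50% in WT replicates 5 and 1, and was listed at 0 in the other 7 samples. For Bak1, the coding Bak1-202 took between 0% and 100% of reads, and 2 transcripts annotated for nonsense-mediated decay, Bak1-201 and Bak1-204, took 39.3% and 31.0% over all samples.

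**Figure D4:**
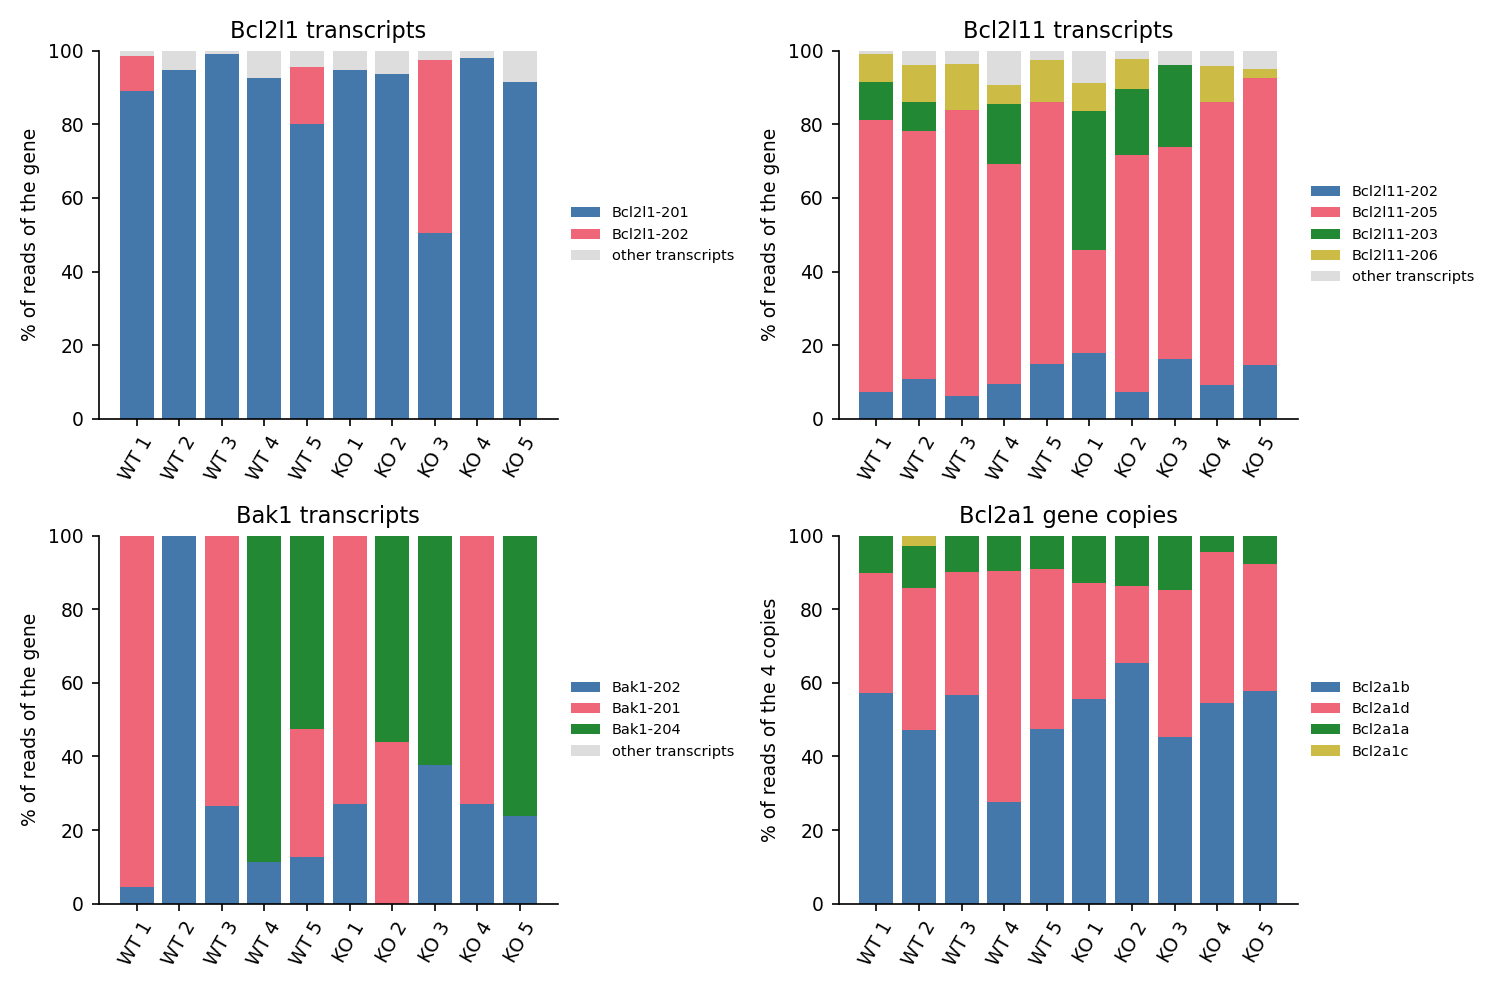
Percent of the reads of Bcl2l1, Bcl2l11 and Bak1 assigned to each transcript with at least 5% of the reads of its gene, and percent of the reads of the 4 Bcl2a1 copies assigned to each copy, with 1 bar per sample (WT 1 to 5, recent KO 1 to 5). The shares of the Bak1 transcripts and of Bcl2l1-202 differ widely from sample to sample in both groups, without a split by group. Bcl2l1-202 reaches 47.1% in recent KO replicate 3 and at most 15.6% in WT. Bak1-202 reaches 100% in WT replicate 2 and at most 37.6% in recent KO.

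The members did not vary as a block across samples. Over the 45 pairs of members, the Pearson correlation of log2 CPM, after subtraction of the group means over 10 samples, ranged from -0.67 to 0.83 with a median of 0.00. These correlations are descriptions over samples that share depth and composition. The pair with the highest value was Bcl2a1b with Bid (0.83), which stayed at 0.74 or more with each sample left out in turn. Bcl2l1 with Bcl2l11 came next (0.83, at least 0.75 with each sample left out), and both genes were highest in recent KO replicates 4 and 3. At the other end, Bcl2 with Bad was at -0.67, and Bax with Bid, at -0.62, turned to 0.13 without recent KO replicate 2.

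The tested genes with a mean of at least 10 CPM that followed Mcl1 most closely in the same measure were Siah2 (r = 0.96), which encodes an E3 ubiquitin ligase, Zfp36 (r = 0.93), which encodes an mRNA decay factor, and 5031425E22Rik (r = 0.90). For Bcl2l11 they were Pqlc3 (r = 0.93), Gba2 (r = 0.93) and Smim3 (r = 0.87). They were the 3 highest of 7153 and 7154 genes over 10 samples, picked for that value.

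Of 16 other BCL2 family genes 9 were tested, 0 passed, 5 had higher and 4 lower estimates, and their median log2 fold change was 0.002. Among BH3-only genes, Bbc3, which encodes PUMA, was at 5.37 ± 0.688 TPM in WT and 4.87 ± 1.60 TPM in recent KO, with a log2 fold change of 0.00 (adjusted p = 0.999 by edgeR). Pmaip1, which encodes NOXA, the BH3-only partner of MCL1, varied among replicates from 4.63 to 13.0 CPM in WT and from 3.29 to 9.82 CPM in recent KO (log2 fold change -0.13, adjusted p = 0.934 by edgeR). Both stood above Bcl2l11 in mean WT TPM.

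Among the rest, the third effector Bok had the largest estimate, a log2 fold change of 0.60 (95% interval -0.13 to 1.34, adjusted p = 0.589 by edgeR). The survival gene Bcl2l2, which encodes BCL-W, was at 0.555 ± 0.135 TPM in WT with a log2 fold change of 0.17, and Bcl2l14 had one of 0.27. The mitophagy receptors Bnip3 and Bnip3l had log2 fold changes of 0.09 and -0.09, and Bcl2l12 and Bcl2l13 had -0.04 and -0.08. The remaining 7 genes of the list, Bcl2a1a, Bcl2a1c, Bcl2l10, Bmf, Bik, Hrk and Bcl2l15, were not tested for low counts, and Bcl2l10 was listed at 0 in every sample.

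Downstream of the family, 8 of 8 apoptosome and caspase genes were tested, 3 had higher and 5 lower estimates, 0 passed, and the median log2 fold change was -0.08.

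The IAP list (inhibitors of caspases and their antagonists) had 7 genes tested, 2 with higher and 5 with lower estimates, 0 passed and the median was -0.02. Its largest estimates were those of Birc2, at 0.21, and Htra2, a mitochondrial protease released with cytochrome c, at -0.16. In the death receptor pathway, 8 genes were tested, 1 had a higher and 7 had lower estimates, 0 passed and the median was -0.15. Tnfrsf10b, the TRAIL receptor, had the largest at 0.75 (adjusted p = 0.409 by edgeR), followed by the adaptor Fadd at -0.26.

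Of 13 genes that regulate the members, such as kinases and transcription factors, 13 were tested, 11 had higher and 2 lower estimates, 0 passed and the median was 0.08, where 49.6% of all tested genes had higher estimates. The largest were those of the kinases Pim2 at 0.43 (95% interval 0.08 to 0.78, adjusted p = 0.387 by edgeR) and Pim1 at 0.41 (adjusted p = 0.666). In 5 of 5 recent KO samples Pim2 was above the WT median. Of 8 handling response genes, which are induced while cells are sorted, 7 were tested, 2 had higher and 5 lower estimates and 0 passed, with Fosb at -0.59 and Jun at -0.46, and their summed TPM was 124 to 204 in WT and 105 to 190.3 in recent KO.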

How the data were processed

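GMPs of 5 WT and 5 recent KO samples were analysed. Per the paper's methods and the labels, the authors made SMARTseq V4 libraries, sequenced paired-end reads and quantified transcripts with Salmon 1.5.1 against GENCODE M27 (GRCm39). The deposited files hold Salmon's estimated counts per transcript, the deposited TPM, and effective lengths as another deposited value. The authors' own DESeq2 table (fold changes and p-values) was not used.

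The reference used here was GENCODE M21 on GRCm38, so transcripts were matched by identifier without version. Of 140789 transcripts 137161 (97.4%) matched, and the 3628 others, with 0.348% to 0.390% of reads, were left out. Estimated counts were summed per gene and rounded, and TPM was summed. Genes were tested with edgeR 4.0.16 (quasi-likelihood, TMM, filterByExpr with a minimum count of 10, Benjamini-Hochberg threshold 0.05) in R 4.3.3 with the group as the only term. The same test ran on transcripts. CPM values were normalized by TMM. Alternatives used limma 3.58.1, DESeq2 1.42.0 and other scalings and filters. Python 3.11.15, numpy 2.4.6, pandas 2.3.3, scipy 1.17.1 and matplotlib were used for the rest.

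In a sample, 3 counts were 0.147 to 0.233 CPM, a floor for counting error only, since reads of amplified cDNA that carry no molecular tags are not separate molecules. Identical values were found in 0 pairs of samples. Named were all 10 members, each tested gene of the other BCL2 family, and of other lists the genes that passed plus the 2 with the largest estimates. The single results of some of these genes are not reported here. Genes like Mcl1 or Bcl2l11 were the 3 with the highest r, with 0.5 added to CPM before log2. Ratios of summed TPM were not tested. The members and lists were chosen with earlier results of these data known.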

Additional observations from a re-analysis of the deposited data

Results flagged for a closer look

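Bcl2 in WT replicate 4 was at 25.4 CPM, apart from the other 4 WT samples at 38.7 to 43.5 CPM. The gap was 0.731 of the range of the group, above Dixon's 95% critical value for 5 samples. It was the 1 such value among 22 groups of 5 samples (10 genes and the balance ratio in each condition), and chance gives about 1 in 20. The same sample had the lowest Bcl2a1b (0.933 CPM) and the highest Bcl2a1d (2.10 CPM) of all 10 samples. It also had the highest Mcl1 (63.73 CPM, beside 63.68 CPM in recent KO replicate 3).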

How the results depend on the processing

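The 10 members were recomputed under 206 combinations of member and alternative. In 0 of them did a member pass the adjusted threshold (smallest adjusted p 0.150, Bid without recent KO replicate 2), and 198 kept the direction of the estimate. Those that turned were Mcl1 with an offset for transcript length (-0.038), Bak1 with the replicate number as a block (-0.017) and, with samples left out in turn, Bak1 (-0.14 to 0.14) and Bcl2l11 (-0.028 to 0.16). The balance difference (0.27) was 0.19 to 0.32 with each sample left out, 0.21 without Bax (an alternative chosen after seeing the data) and 0.41 without Mcl1, and stayed within 1 SD (0.145) of its value under the others run. The count of member transcripts that passed was 0 throughout.

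The 41 genes that differed overall became 206 without a filter on low counts, 156 with DESeq2, 25 on the log2(TPM + 1) scale and 24 on log2(TPM + 0.1) in limma, 13 in limma with no filter, 20 with the replicate block, and 25 to 91 with samples left out, 91 without recent KO replicate 2. The causes were not tested. Mpc2 lost its adjusted call, at log2 fold changes of -1.40 with the length offset, -1.35 with limma on log2(TPM + 1) with or without the filter, -1.38 on log2(TPM + 0.1), and -1.46 with the replicate block. With samples left out in turn it was -1.60 to -1.31, and the call was lost without recent KO replicate 1 (adjusted p 0.05002 by edgeR).

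Replicate numbers did not pair the samples: the correlation of same-numbered samples was -0.18 to 0.06, and the block changed no call of a member. Bak1, Bcl2l11 and the A1 copies, with at most 120.0 estimated reads in any sample, are limited by depth.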
